A study of Mus musculus with 20 samples.

Results

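The genes described here are those of the mouse major histocompatibility complex (MHC, called H2 in the mouse) and of the machinery that prepares peptides for it. They are all listed genes whose symbol starts with H2-, together with B2m, Cd74, Ciita, Tap1, Tap2, Tapbp, Psmb8, Psmb9, Psmb10, Nlrc5, Rps18 and Rps18-ps6, with at least 1 count in total over all livers. This gave 38 genes of the 22298 listed, and 11 further H2- genes had no count in any liver. RNA was sequenced from the liver of 20 mice, 1 library each, all of them Lepr db/db males, in which the leptin receptor does not signal. At 5 weeks of age every mouse was injected through the tail vein with AAV8, whose cargo was a control shRNA without a target (Vec) or a set of shRNAs against Pparg (shRNA), the gene of the nuclear receptor PPARγ. The mice then received benzbromarone (BBR), a uricosuric drug, at 25 mg per kg or its vehicle, sodium carboxymethyl cellulose, by gavage once a day for 4 weeks, which makes the groups Vec, Vec+BBR, shRNA and shRNA+BBR with 5 mice each, and tissue was taken after 6 h of fasting. All mice thus carried the db mutation and a vector, and the promoter that drives the shRNAs in liver cells was not given in the sources used here. The labels give no H2 genotype for any mouse.

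Class I molecules pair a heavy chain with β2-microglobulin and show peptides from inside the cell to CD8 T cells. The peptides are cut by the proteasome, in inflamed tissue by its immunoproteasome form, pumped into the endoplasmic reticulum by the TAP transporter and loaded with the help of tapasin. Class II molecules show peptides from taken-up material to CD4 T cells, and in liver they are mainly made by Kupffer cells, dendritic cells and B cells rather than by hepatocytes. Interferon gamma is the classical inducer of both pathways, acting through the transactivators NLRC5 for class I and CIITA for class II. The H2 region is among the most variable of the mouse genome, and whole haplotypes are inherited together. H2-Ea, which encodes the α chain of the class II molecule I-E, is silent in several haplotypes, among them that of the reference strain, where its annotated name is H2-Ea-ps.

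Hepatocyte markers were high in all livers, with a sum over 8 markers of 90050 to 156724 CPM (counts scaled to a common library size by TMM), of which Alb, the albumin gene, took 75123 to 123615 CPM. Pparg, the targeted gene, lay between 16.4 and 35.9 CPM in Vec, 28.0 and 38.3 CPM in Vec+BBR, 3.24 and 7.31 CPM in shRNA, and 7.19 and 21.8 CPM in shRNA+BBR livers. Total counts per library ran from 17432904 to 25024099, and 3 counts, the floor used for single genes, correspond to 0.121 to 0.193 CPM. Of the 38 genes, 32 passed the filter on low counts and were tested among 12342 genes, and the other 6 (H2-M2, H2-Oa, H2-Ob, H2-Eb2, H2-Bl and H2-Q2) had at most 2.01 CPM in any liver. In bulk tissue, fewer cells of a type and less RNA per cell cannot be told apart.

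The 38 genes lie mostly in a single block. In the GENCODE M21 annotation of GRCm38, 32 of them are on chromosome 17 between positions 33915899 and 37483552, from Tapbp at the proximal to H2-M2 at the distal end. Rps18, the gene of ribosomal protein S18, lies inside this block (chromosome 17, 33951999 to 33956001), with H2-K1 distal of it (33996017 to 34000347). Rps18-ps6 is a processed copy of it on chromosome 13 (97760072 to 97760632). The coding sequences of Rps18 and Rps18-ps6 have 459 bases each and differ at 4 positions, which gives 99.1% identity. Counted from the first base of the start codon, the differences are T186C, A337C, G371A and G431A with the base of Rps18 first, and 2 of them are synonymous. The stretch from position 322 to 446 holds 3 of the 4 and is shown because it holds most of the coding bases at which both genes differ, printed in capitals.
Rps18: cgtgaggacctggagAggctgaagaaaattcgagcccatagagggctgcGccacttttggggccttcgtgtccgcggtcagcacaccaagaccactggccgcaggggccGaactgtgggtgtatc
Rps18-ps6: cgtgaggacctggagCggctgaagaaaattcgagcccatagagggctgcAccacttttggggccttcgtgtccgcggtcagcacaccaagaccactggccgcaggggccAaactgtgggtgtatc

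Promoters are shown for 3 genes that the comparisons turn on, namely H2-Q10 and H2-Q6, nearby class Ib genes that moved in opposite directions with BBR, and H2-Eb1, a class II gene. Each is the 200 bases before a gene start in RefSeq on GRCm38.p6, 5′ to 3′ on the strand of the gene, and capitals mark the motif CCAAT, the motif TAGCAAC and the motif TTTCACTT on either strand. These are the letters of the NF-Y site, of the core of the class II X box and of an interferon response element. The windows are chr17:35469889-35470088, chr17:35424650-35424849 and chr17:34305667-34305866 in the order printed, all on the plus strand.
H2-Q10: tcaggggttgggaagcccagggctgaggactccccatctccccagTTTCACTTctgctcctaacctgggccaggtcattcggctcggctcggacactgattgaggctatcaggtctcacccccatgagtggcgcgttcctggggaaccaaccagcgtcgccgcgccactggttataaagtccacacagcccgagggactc
H2-Q6: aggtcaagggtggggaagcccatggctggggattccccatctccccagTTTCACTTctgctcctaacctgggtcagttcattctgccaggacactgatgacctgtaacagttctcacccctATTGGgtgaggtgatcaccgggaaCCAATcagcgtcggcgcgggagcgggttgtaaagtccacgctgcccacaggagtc
H2-Eb1: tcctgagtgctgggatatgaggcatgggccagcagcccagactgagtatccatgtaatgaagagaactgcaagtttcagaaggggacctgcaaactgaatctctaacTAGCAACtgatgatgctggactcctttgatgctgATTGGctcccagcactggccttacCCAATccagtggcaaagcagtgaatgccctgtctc

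Promoter entries were found for 27 of the 38 genes, and no matches overlapped in the printed windows. TTTCACTT was in 8 of 11 class I genes, 0 of 8 class II genes and 1.03% of all 32851 promoter windows of the same length. TAGCAAC was in 3 of 8 class II genes, among them H2-Eb1, in 0 of 11 class I genes and in 2.71% of all windows. CCAAT was in 22 of the 27 genes and 29.3% of all windows, and H2-Q10 was the class I gene without it. AGGTCA, the half-site of many nuclear receptors, was in 8 of the 27 genes and 11.4% of all windows, once in H2-Q10 and 2 times in H2-Q6. A match only says that these letters are present in the reference build, which holds a single H2 haplotype. The promoters of the mice studied may differ and were not examined.

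Per transcript length, class I was the more abundant pathway in these livers. Levels between genes were compared in FPKM, which the authors scaled for length. B2m, the gene of β2-microglobulin, had the highest median over 20 livers with 2387 FPKM, followed by H2-Q10 with 839.7 FPKM, which encodes a secreted class Ib chain made by hepatocytes. The class Ia genes H2-K1 and H2-D1, which encode the classical heavy chains, had medians of 397 and 254 FPKM. H2-K1 spanned 75.0 to 827 FPKM, so that in some livers it lay below every value of H2-D1 (195 to 397 FPKM). Among class II genes, Cd74, the gene of the invariant chain, had a median of 76.6 FPKM, and H2-Aa, H2-Ab1, H2-Eb1 and H2-Ea had 36.5, 19.9, 19.8 and 19.0 FPKM. The ranges of these last 4 overlapped. The peptide exchange genes H2-DMa and H2-DMb1 were lower, at 3.33 and 2.62 FPKM, and Ciita, the transactivator gene, was at 0.18 FPKM.

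**Figure D1:**
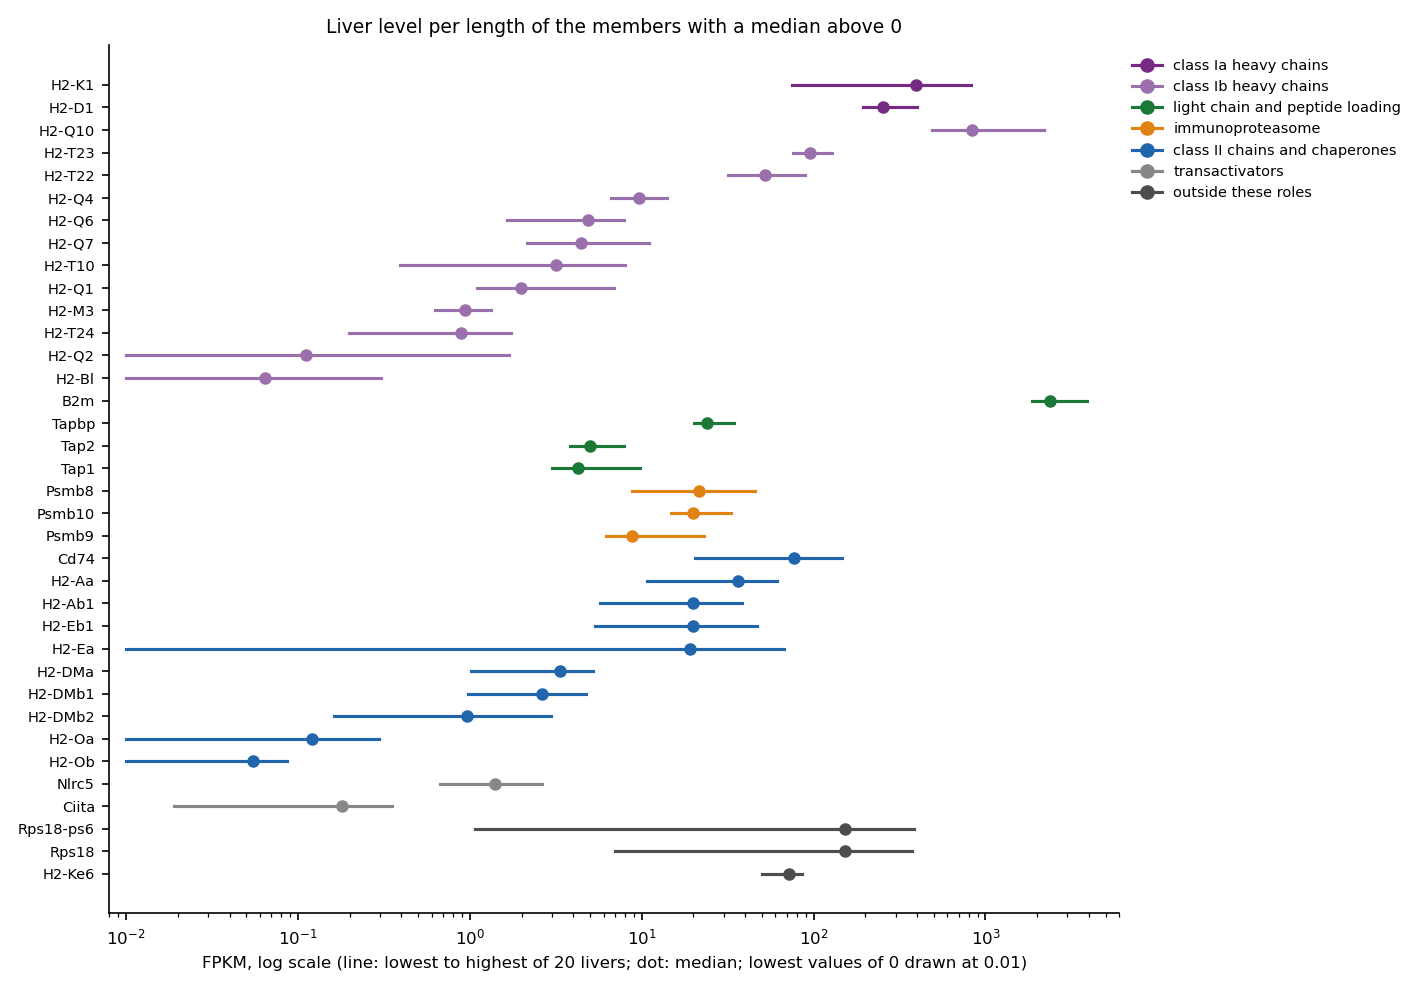
FPKM on a log axis for the 36 genes with a median above 0, grouped by role, where each line runs from the lowest to the highest of 20 livers and the dot is the median, with lowest values of 0 drawn at the left edge. B2m and H2-Q10 have the highest medians, and H2-Ea and Rps18-ps6 have the longest ranges among genes with a median above 10 FPKM.

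Expected counts divide reads between genes that they match equally well, and the deposited counts were not whole in all 20 libraries for H2-D1, H2-Q1, H2-Q4, H2-Q6, H2-Q7, H2-Q10, H2-T10, H2-T22, H2-T23, Rps18 and Rps18-ps6. For H2-K1, H2-DMb1 and H2-DMb2 this was so in 85% of libraries. Levels and differences of these genes are therefore uncertain by the reads they share with their relatives. Counts of H2-Ea, H2-Eb1, H2-DMa, Cd74, Tap2, Tapbp, Psmb8 and Psmb10 were whole in every library. The start of Tap1 (34187553 to 34197225) overlaps that of Psmb9 on the other strand (34181987 to 34187764), and counts of both were not whole in 20% of libraries.

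H2-Ea, H2-K1, Rps18 and Rps18-ps6 varied within every group over wide ranges. H2-Ea was at 52.4, 0, 19.7, 21.5 and 25.7 CPM in the 5 Vec livers, at 19.5, 14.7, 33.2, 0.0446 and 0.0471 CPM in Vec+BBR, at 0.0457, 20.9, 19.0, 21.9 and 5.13 CPM in shRNA, and at 13.3, 72.5, 53.9, 44.7 and 13.1 CPM in shRNA+BBR livers. It thus had 1 count or none in Vec 2, Vec+BBR 4, Vec+BBR 5 and shRNA 1, and at least 5.13 CPM in the other 16. A level of 1 CPM was used to call it present, and no liver lay between 0.0471 and 5.13 CPM. H2-Ea thus splits the livers into a pair of classes that cross the groups.

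Rps18 and Rps18-ps6 divided the livers further, into 3 clusters. The share of Rps18-ps6 in the sum of both genes was 0.377% to 0.556% in the 4 livers without H2-Ea. It was 44.3% to 47.3% in 8 livers and 96.0% to 97.7% in the other 8. The middle cluster holds Vec 3 and 4, Vec+BBR 1 and 2, shRNA 3 and 5, and shRNA+BBR 1 and 5. The high cluster holds Vec 1 and 5, Vec+BBR 3, shRNA 2 and 4, and shRNA+BBR 2, 3 and 4. The sum of both genes lay between 139.9 and 241 CPM in all livers, and the clusters overlapped in it. Rps18 alone was at 162 to 240.1 CPM in the low, 74.7 to 108 CPM in the middle and 3.77 to 6.39 CPM in the high cluster.

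H2-K1 followed the same 3 clusters in the order of Rps18. It was at 1043 to 1299 CPM with the low share, 553 to 901 CPM with the middle share and 74.4 to 220.4 CPM with the high share. No values overlapped between clusters, and each cluster held mice of at least 3 groups. Vec 2, 3 and 1, for example, were at 1167, 901 and 140.5 CPM. Of all 12342 genes tested, 4 (0.0324%) were ordered without overlap over the 3 clusters. They were Rps18 and H2-K1, falling, and Rps18-ps6 and Rps18-ps5, a further Rps18 copy on chromosome 13, rising. Rps18 and Rps18-ps6 define the clusters and are no result of them, which leaves H2-K1 and Rps18-ps5. Whether Rps18-ps5 shares reads with Rps18 and Rps18-ps6 was not tested, so only H2-K1 is left apart from Rps18 and its copies. H2-K1 lies in the same block as Rps18, where haplotypes are inherited together, so it is not independent of Rps18. The reads were counted on a build with a single H2 haplotype. Whether reads of other H2-K1 alleles were lost, so that its RNA level differed less than its counts, was not tested. H2-D1, the other class Ia gene, had medians of 540, 552 and 467 CPM in the low, middle and high clusters, with ranges that overlapped.

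**Figure D2:**
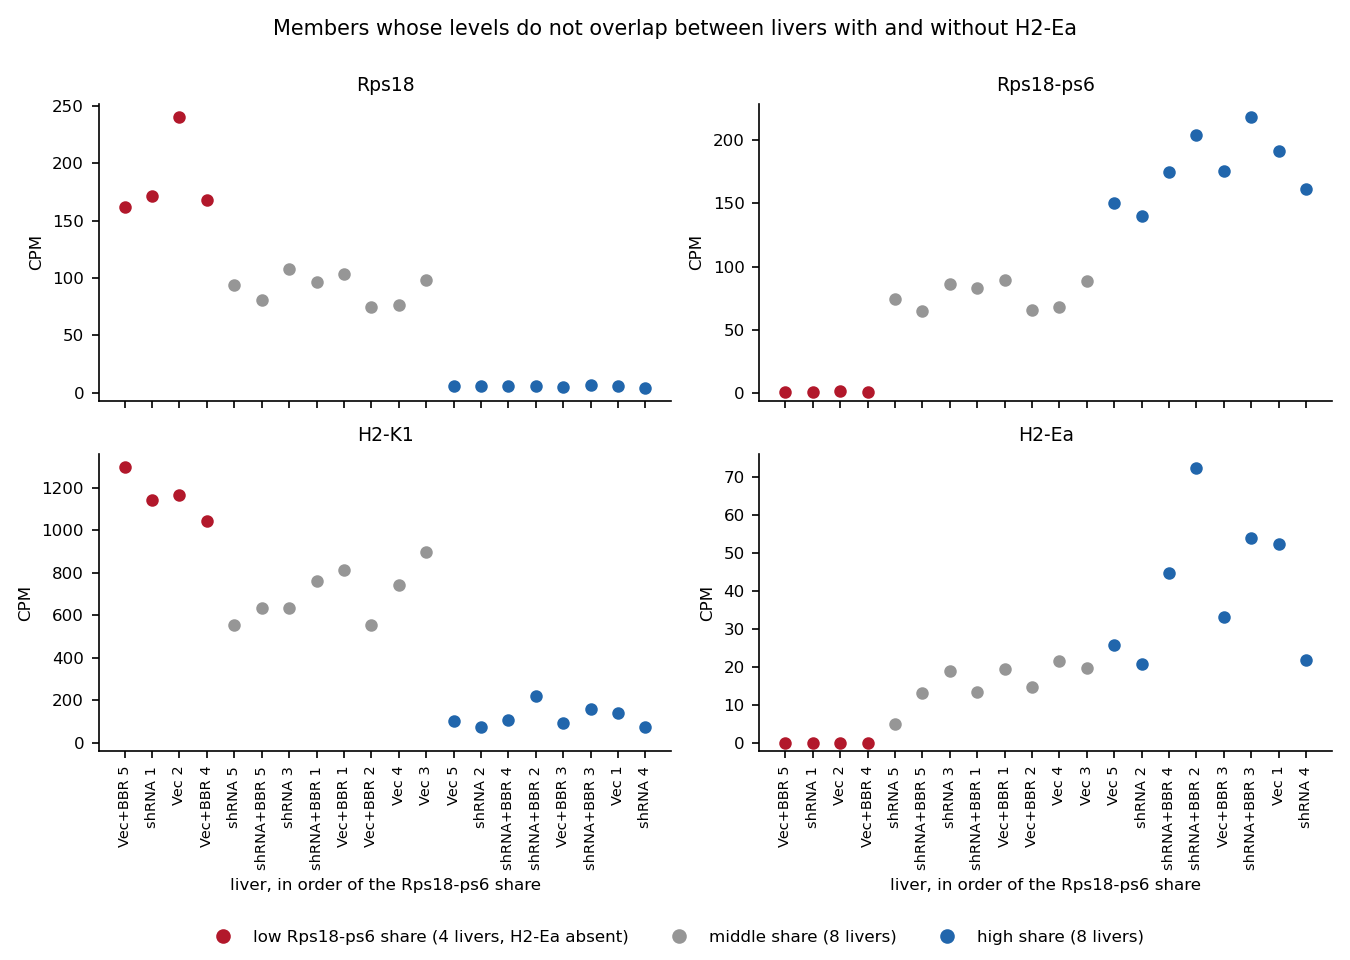
CPM of Rps18, Rps18-ps6, H2-K1 and H2-Ea in each liver, ordered from left to right by the Rps18-ps6 share and coloured by cluster. Rps18 and H2-K1 step down over the 3 clusters, Rps18-ps6 steps up, and H2-Ea is at most 0.0471 CPM in the 4 livers of the low cluster.

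Between the 4 livers without and the 16 livers with H2-Ea, 11 of 12342 genes (0.0891%) did not overlap, and 5 of them are members. Besides H2-Ea, Rps18, Rps18-ps6 and H2-K1 the fifth was H2-DMb2, which encodes a β chain of the H2-M peptide exchanger. It was at 0.223 to 0.282 CPM without and 0.458 to 4.35 CPM with H2-Ea. In the livers without H2-Ea this was 4.21 to 6.07 counts, near the floor of 3 counts. The other 6 genes were Lck, Cd8a and Trbc2, which are T cell genes, Ighg2b, an immunoglobulin gene, Gm11127 at 36055816 to 36058371 within the H2 block, and Rps18-ps5. These 6 were named after their values were seen, and all were lower without H2-Ea. H2-Ea itself defines the split and is not a result of it. The 4 livers without H2-Ea are the low cluster that Rps18 and Rps18-ps6 define, so these genes are no separate result either. Of these 4 livers 2 are Vec+BBR livers. How many genes would separate in this way by chance was not tested.

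Several class Ib genes shifted with the clusters but overlapped. H2-Q10 had medians of 2240.4, 1331 and 1018 CPM from the low to the high cluster. In the low cluster the Vec+BBR livers were at 2881 and 3033 CPM and the Vec and shRNA livers at 1404 and 1600.2 CPM, so these medians mix the clusters with the groups. H2-T10, a class Ib gene of the T region, had medians of 1.05, 4.75 and 8.24 CPM, and H2-T24 of the same region had 0.654, 1.54 and 2.59 CPM. The annotation used here lists H2-T10, like H2-Ea, as a polymorphic pseudogene. The class II genes were less ordered. H2-Eb1 ran from 8.36 to 33.2 CPM without and 8.001 to 53.6 CPM with H2-Ea, and Cd74 from 29.2 to 97.3 CPM and 36.0 to 191 CPM. B2m, Tapbp and H2-Ke6 had medians of 2032, 67.5 and 67.3 CPM without and 2133, 62.1 and 67.2 CPM with H2-Ea.

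The clusters were not spread evenly over the groups. Vec and shRNA each held 1, 2 and 2 livers of the low, middle and high clusters, Vec+BBR held 2, 2 and 1, and shRNA+BBR held 0, 2 and 3. Comparisons with Vec+BBR or shRNA+BBR therefore set unlike mixtures of clusters against each other, whereas shRNA against Vec does not. For this reason each comparison was also fitted with the presence of H2-Ea as a covariate. In that fit H2-Ea itself was left out, which leaves 31 members among 12341 genes. The summed level of 12 T and NK cell markers was 0.964 to 2.72 CPM without and 1.63 to 19.6 CPM with H2-Ea, and that of 13 Kupffer cell and macrophage markers was 234 to 428 CPM and 291 to 551 CPM. The part of these cells in the differences between clusters was not tested.

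**Figure D3:**
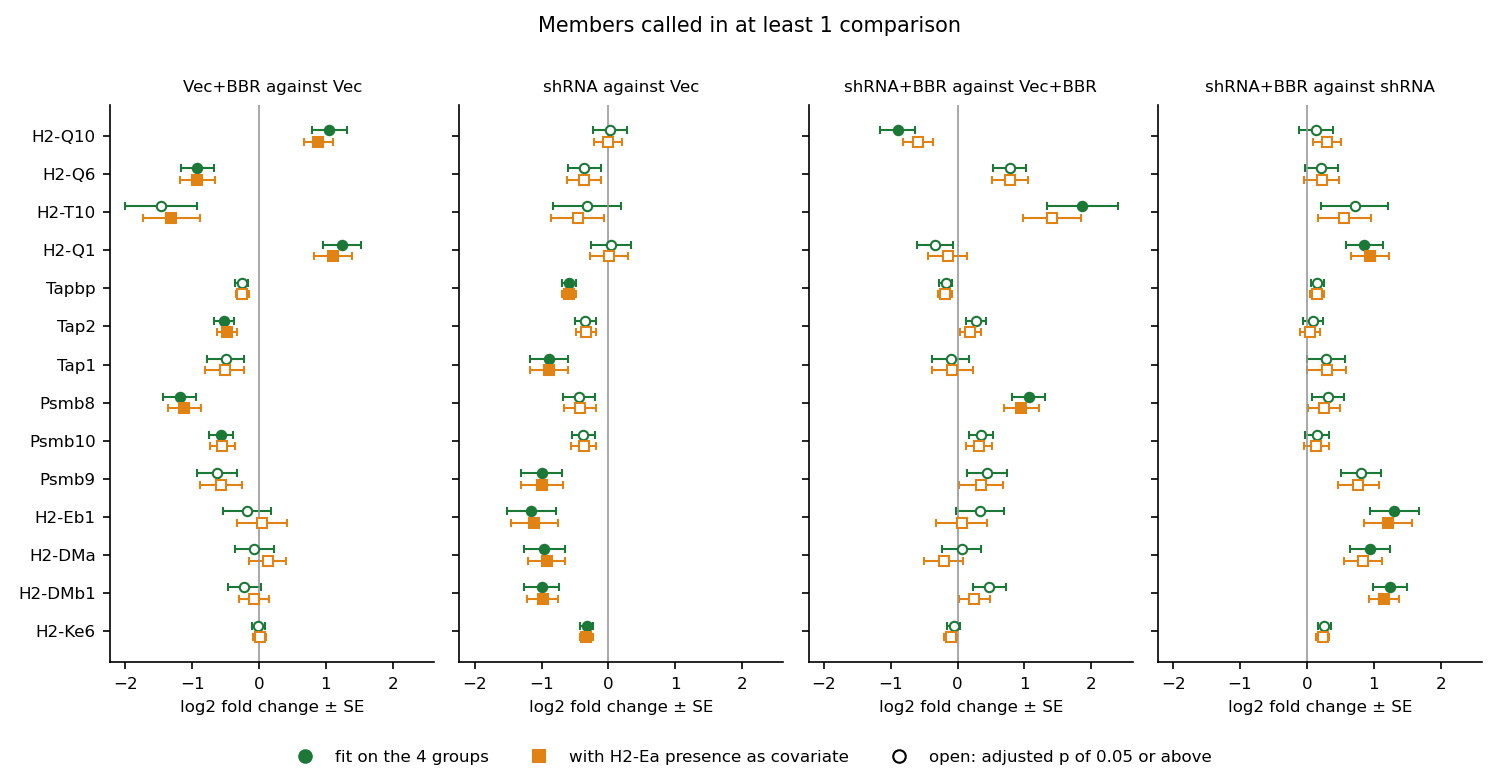
Log2 fold change ± standard error of the 14 members called in at least 1 comparison, in 4 panels for the 4 comparisons of groups. Circles are from the fit on the groups and squares from the fit with H2-Ea presence as covariate, filled where the adjusted p-value was under 0.05. With the covariate H2-Q10 and H2-T10 are no longer filled in shRNA+BBR against Vec+BBR.

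With BBR in Vec mice, 2 class Ib genes were higher and parts of the peptide supply were lower. Of 32 members, 2 rose (H2-Q10 and H2-Q1) and 4 fell (Psmb8, H2-Q6, Tap2 and Psmb10) in Vec+BBR relative to Vec livers. A gene was called where the p-value of the quasi-likelihood test in edgeR, adjusted by Benjamini-Hochberg over all genes tested, was under 0.05, and every adjusted p below is of that kind. The 6 members are 18.8% of those tested, against 15.5% of all genes tested, so the share of members called is close to that of all genes. The median log2 fold change was −0.25 over the members and −0.01 over all genes. With the H2-Ea covariate again 6 of 31 members were called, or 19.4%, against 14.7% of all genes. At an unadjusted p-value under 0.05 the counts were 2 higher and 9 lower, where 30.2% of all genes passed.

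H2-Q10 was at 770.1, 1404, 1407, 980.2 and 857 CPM in the 5 Vec livers and at 2179.5, 1917, 1232, 3033 and 2881 CPM in the 5 Vec+BBR livers. Only Vec+BBR 3, the group's liver of the high cluster, lay within the range of Vec. The log2 fold change was 1.05 (standard error 0.26, adjusted p = 0.00912) and 0.89 with the H2-Ea covariate (adjusted p = 0.00913). Within each cluster, every Vec+BBR liver was above every Vec liver. In the low cluster the Vec liver was at 1404 CPM and the Vec+BBR livers were at 2881 and 3033 CPM, in the middle cluster 980.2 and 1407 CPM stood against 1917 and 2179.5 CPM, and in the high cluster 770.1 and 857 CPM stood against 1232 CPM. Among the livers with H2-Ea alone, 4 Vec and 3 Vec+BBR, the value was 0.82 and was not called (adjusted p = 0.109). In the fit on these livers 290 of all genes were called, against 1908 with all livers. H2-Q1, a class Ib gene of low level, was at 3.26, 2.51, 4.51, 2.23 and 3.86 CPM in Vec and 6.75, 8.11, 3.19, 12.9 and 7.77 CPM in Vec+BBR livers. Again Vec+BBR 3 alone overlapped with Vec (log2 fold change 1.23, standard error 0.28, adjusted p = 0.00612), and among livers with H2-Ea alone the value was 0.79 (adjusted p = 0.179).

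H2-Q6 moved the other way, from 12.4, 8.36, 14.2, 16.6 and 10.5 CPM in Vec to 6.46, 7.30, 5.80, 3.21 and 10.1 CPM in Vec+BBR livers. The groups overlapped only through Vec 2 and Vec+BBR 5, both without H2-Ea (log2 fold change −0.92, standard error 0.25, adjusted p = 0.0169), and among livers with H2-Ea alone the value was −1.05 (adjusted p = 0.0279). Counts of H2-Q6 and H2-Q10 were not whole in any library, so the size of both changes is uncertain, and whether they share reads with each other was not tested. H2-T10 was at 8.07, 3.98, 8.39, 4.92 and 8.15 CPM in Vec and 4.10, 0.627, 5.61, 0.625 and 1.18 CPM in Vec+BBR livers. Its log2 fold change of −1.47 did not pass on the groups alone (adjusted p = 0.0671) and did with the H2-Ea covariate (−1.31, adjusted p = 0.0444), without Vec+BBR 1 (−1.76, adjusted p = 0.0442) and without Vec+BBR 3 (−2.03, adjusted p = 0.0231). Among livers with H2-Ea alone it was −1.11 and was not called (adjusted p = 0.230).

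The immunoproteasome gene Psmb8, which encodes the subunit β5i, had the smallest adjusted p of the members. It was at 45.1, 22.05, 27.2, 33.9 and 28.4 CPM in Vec and 16.5, 12.003, 14.1, 8.57 and 17.6 CPM in Vec+BBR livers, without overlap. The log2 fold change was −1.19 (standard error 0.24, adjusted p = 0.00284) and −1.12 with the covariate (adjusted p = 0.00564), and among livers with H2-Ea alone −1.25 (adjusted p = 0.0331). Leaving out any 1 liver kept it between −1.29 and −1.03. Its companion subunit genes were Psmb10, which fell from a range of 28.7 to 40.8 CPM to 16.97 to 27.1 CPM (log2 fold change −0.57, adjusted p = 0.0343), and Psmb9, with a log2 fold change of −0.63 (adjusted p = 0.161). The call for Psmb10 ended with the H2-Ea covariate (adjusted p = 0.0506) and without Vec 1, Vec 4, Vec+BBR 2, Vec+BBR 3 or Vec+BBR 4, where the adjusted p was 0.101, 0.0607, 0.0920, 0.0675 and 0.0896, and among livers with H2-Ea alone (0.134).

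Tap2, which encodes a subunit of the TAP transporter, was at 29.2, 18.9, 20.3, 22.5 and 20.7 CPM in Vec and 18.3, 15.6, 15.6, 12.3 and 15.9 CPM in Vec+BBR livers, again without overlap. Its log2 fold change was −0.52 (standard error 0.15, adjusted p = 0.0246), and −0.48 with the covariate (adjusted p = 0.0387). Without Vec 1 the adjusted p was 0.0894, without Vec+BBR 4 it was 0.0751, and among livers with H2-Ea alone it was 0.173. Tap1, its partner, had a log2 fold change of −0.50 (adjusted p = 0.240) and Tapbp, the tapasin gene, −0.26 (adjusted p = 0.0785). Nlrc5, the class I transactivator, was at 5.91 to 11.002 CPM in Vec and 3.35 to 6.68 CPM in Vec+BBR livers (log2 fold change −0.55, adjusted p = 0.0539). DESeq2 called Nlrc5, as did edgeR without Vec 2, Vec 3, Vec+BBR 1 or Vec+BBR 5, and the fit with the H2-Ea covariate did not. Among the 8 class II genes tested the lowest adjusted p was 0.567, with log2 fold changes from −0.83 for H2-Ea to 0.15 for H2-Aa.

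Other markers moved beside these genes. Of 9 T and NK cell markers tested, 5 were lower with BBR, and the summed level of the list was 0.964 to 19.6 CPM in Vec and 2.68 to 4.99 CPM in Vec+BBR livers, which lie inside the range of Vec. Of 18 interferon response genes tested, 5 were lower, among them Gbp2 (log2 fold change −1.69, adjusted p = 0.0149), and the sum over 19 genes was 180 to 580 CPM in Vec and 154 to 304 CPM in Vec+BBR. With the covariate 3 and 2 genes of these lists were lower. Of the Kupffer cell and macrophage markers Marco and Timd4 were lower and Cd68 was higher, and Itgax, a gene of dendritic cells and macrophages, was higher by 1.04 on the log2 scale (adjusted p = 0.0179). Of 8 hepatocyte markers 4 were lower, and of 8 endothelial markers 5 were higher. Irf1 of the interferon list, an interferon-induced activator of class I and Psmb8 genes, had a log2 fold change of −0.69 (adjusted p = 0.0151). The part of these markers in the differences of the members was not tested.

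**Figure D4:**
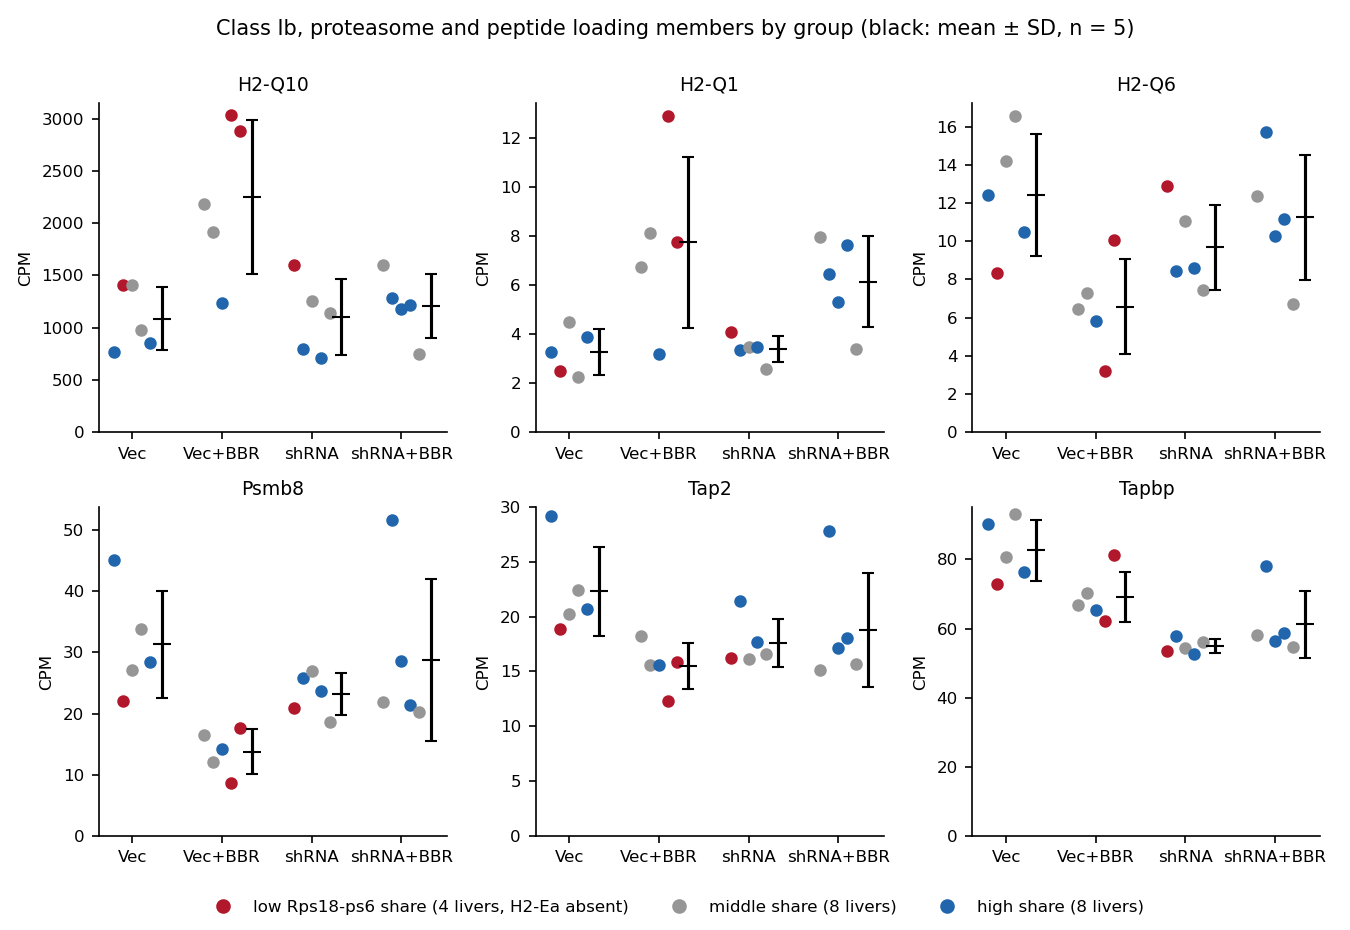
CPM of H2-Q10, H2-Q1, H2-Q6, Psmb8, Tap2 and Tapbp by group, with 1 point per liver coloured by cluster of the Rps18-ps6 share and the mean ± SD of 5 livers in black. Vec+BBR livers lie below all Vec livers for Psmb8 and Tap2, and shRNA livers lie below all Vec livers for Tapbp.

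With knockdown of Pparg in vehicle-treated mice, 3 of 8 class II genes tested and 2 of 4 genes of the light chain and peptide loading were lower. In shRNA against Vec livers 7 of 32 members were lower, namely Tapbp, H2-DMb1, H2-Ke6, Psmb9, H2-DMa, Tap1 and H2-Eb1, which is 21.9% against 13.2% of all genes tested. No member was called higher by edgeR, and at an unadjusted p-value under 0.05 the counts were 0 higher and 12 lower, where 28.4% of all genes passed in either direction. DESeq2 called 8, against 14.8% of all genes it tested. They were these 7 and, in the higher direction, H2-Q2, a gene that the filter of the edgeR fit left out. H2-Q2 was at 0 to 0.3297 CPM in Vec and 0.0876 to 2.01 CPM in shRNA livers. The median log2 fold change was −0.32 over the members and −0.01 over all genes. With the covariate the same 7 were called, 22.6% of 31 members against 12.5% of all genes. With the Rps18-ps6 share in its place 6 were called, without H2-Eb1, beside 1554 of all genes. With log2 CPM of H2-Ea 5 were called, without H2-Eb1 and Tap1, beside 1500 of all genes. Both groups held 1, 2 and 2 livers of the 3 clusters.

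Tapbp had the smallest adjusted p of the members, at 90.2, 72.8, 80.6, 93.1 and 76.4 CPM in Vec and 53.6, 58.0, 54.4, 52.7 and 56.0 CPM in shRNA livers. The lowest Vec liver lay above the highest shRNA liver. Its log2 fold change was −0.59 (standard error 0.10, adjusted p = 0.000429), and it stayed between −0.62 and −0.54 with any 1 liver left out. Psmb9, which encodes the subunit β1i, was at 28.3, 13.0, 18.6, 16.6 and 18.1 CPM in Vec and 7.86, 9.26, 12.1, 9.77 and 8.46 CPM in shRNA livers, also without overlap (log2 fold change −0.999, standard error 0.30, adjusted p = 0.0336). Tap1 was at 12.5 to 30.3 CPM in Vec and 8.59 to 14.1 CPM in shRNA livers (log2 fold change −0.88, standard error 0.28, adjusted p = 0.0419), with an overlap at Vec 5 and shRNA 3. H2-Ke6, which lies in the H2 block but encodes a hydroxysteroid dehydrogenase, was at 75.4, 75.2, 80.3, 63.1 and 69.4 CPM in Vec and 49.5, 56.5, 57.3, 61.5 and 65.05 CPM in shRNA livers. Only Vec 4 and shRNA 5 overlapped (log2 fold change −0.33, standard error 0.10, adjusted p = 0.0319).

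Among class II genes, H2-DMb1 was at 4.71, 2.31, 4.61, 5.02 and 3.82 CPM in Vec and 1.37, 1.84, 2.78, 2.45 and 1.79 CPM in shRNA livers. Vec 2, a liver without H2-Ea, was the only Vec liver within the shRNA range. The log2 fold change was −0.999 (standard error 0.26, adjusted p = 0.0131), and −0.985 with the covariate (adjusted p = 0.00714). H2-DMa was at 5.11, 1.41, 4.90, 6.03 and 3.72 CPM in Vec and 1.42, 2.57, 3.18, 2.32 and 1.5002 CPM in shRNA livers (log2 fold change −0.96, standard error 0.30, adjusted p = 0.0417). H2-Eb1, the β chain gene of I-E, was at 42.6, 8.36, 34.7, 38.3 and 17.6 CPM in Vec and 8.64, 10.7, 24.6, 11.7 and 8.001 CPM in shRNA livers (log2 fold change −1.16, standard error 0.37, adjusted p = 0.0421). For both, Vec 2 was the lowest Vec liver and shRNA 3 the highest shRNA liver. Among livers with H2-Ea alone, 4 in each group, the values of H2-DMb1, H2-DMa and H2-Eb1 were −1.03, −1.05 and −1.28 and all 3 were called (adjusted p = 0.0206, 0.0167 and 0.0389). Cd74, H2-Aa and H2-Ab1 had log2 fold changes of −0.86, −0.83 and −1.0005 and did not pass (adjusted p = 0.122, 0.126 and 0.0717). All 8 class II genes tested had negative values, with a median of −0.91.

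The calls for Tapbp and H2-DMb1 held with any 1 of the 10 livers left out, with adjusted p-values up to 0.00221 and 0.0395. Those for H2-DMa, H2-Eb1 and Tap1 ended without Vec 1, Vec 3, Vec 4, shRNA 1, shRNA 2, shRNA 4 or shRNA 5 (adjusted p up to 0.103, 0.115 and 0.131). The call for Psmb9 ended without the same livers other than Vec 4 (up to 0.104), and that for H2-Ke6 without Vec 1, Vec 2, Vec 3, shRNA 1, shRNA 2 or shRNA 3 (up to 0.0907). The number called was 2 without Vec 1, Vec 3 or shRNA 1, 3 without shRNA 2 or shRNA 5, 4 without Vec 4 or shRNA 4, 8 without Vec 2 or shRNA 3, and 9 without Vec 5. H2-Q2 is counted among those without Vec 5, shRNA 2 or shRNA 4. Over these fits 1015 to 2284 of all genes were called, against 1628 with all livers. Among livers with H2-Ea alone 4 members were called, and Psmb9, Tap1 and H2-Ke6 were not among them (adjusted p = 0.0757, 0.0793 and 0.176). In that fit 737 of all genes were called.

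The sum of the 13 Kupffer cell and macrophage markers was 234 to 551 CPM in Vec, with Vec 2 lowest, and 291 to 391 CPM in shRNA livers. Of these markers Cd68 was lower (log2 fold change −0.72, adjusted p = 0.0274), and the median of the list was −0.44. The T and NK cell markers Nkg7, Ccl5 and Cd8b1 were lower, and the sum of that list was 0.964 to 19.6 CPM in Vec and 1.63 to 8.15 CPM in shRNA livers. Dendritic cell markers summed to 2.76 to 5.56 CPM and 2.96 to 5.88 CPM, and B and plasma cell markers to 0.707 to 3.58 CPM and 0.583 to 2.76 CPM. The 18 interferon response genes had a median of −0.41, and the lowest adjusted p among them was 0.0602. Of the hepatocyte markers 2 were lower and of the endothelial markers 4 were higher. The part of these cells in the class II decreases was not tested.

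Under BBR, Psmb8 was higher with knockdown, and the calls for H2-T10 and H2-Q10 ended with H2-Ea as covariate. In shRNA+BBR against Vec+BBR livers 2 of 32 members were higher (Psmb8 and H2-T10) and 1 was lower (H2-Q10), which is 9.38% against 8.13% of all genes tested. The share of members called is thus close to that of all genes here too. The median log2 fold change was 0.28 over the members and 0.00 over all genes. With the covariate 1 of 31 members was called, 3.23% against 5.21% of all genes. Vec+BBR held 2 livers without H2-Ea and shRNA+BBR held none. Without Vec+BBR 2, Vec+BBR 4, shRNA+BBR 2 or shRNA+BBR 3 the number called was 1. In these fits 538 to 776 of all genes were called, against 1004 with all livers.

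Psmb8 was at 21.96, 51.6, 28.5, 21.4 and 20.2 CPM in shRNA+BBR livers and, as above, at 8.57 to 17.6 CPM in Vec+BBR livers, without overlap. The log2 fold change was 1.06 (standard error 0.24, adjusted p = 0.0112), 0.95 with the H2-Ea covariate (adjusted p = 0.0376) and 0.84 with the Rps18-ps6 share in its place (adjusted p = 0.0539). Without shRNA+BBR 2, the highest liver, it was 0.75 (adjusted p = 0.0344), and among livers with H2-Ea alone it was 1.03 (adjusted p = 0.0625). In the fit on livers with H2-Ea alone 196 of all genes were called, against 1004 with all livers. H2-Q10 was at 1603, 1283, 1179.7, 1221 and 743 CPM in shRNA+BBR livers, of which the 3 of the high cluster lay around Vec+BBR 3. In the middle cluster H2-Q10 was at 743 and 1603 CPM in shRNA+BBR and at 1917 and 2179.5 CPM in Vec+BBR livers, without overlap. On the log2 scale its difference was −0.90 ± 0.26 (standard error, adjusted p = 0.0340) and became −0.59 with the covariate (adjusted p = 0.123) and −0.45 with the share (adjusted p = 0.179). H2-T10 was at 4.94, 13.6, 11.1, 7.26 and 7.29 CPM in shRNA+BBR and 4.10, 0.627, 5.61, 0.625 and 1.18 CPM in Vec+BBR livers. This difference was 1.87 ± 0.53 on the log2 scale (standard error, adjusted p = 0.0337) and became 1.41 with the covariate (adjusted p = 0.0629) and 1.32 with the share (adjusted p = 0.0483).

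Leaving out Vec+BBR 2, Vec+BBR 4, Vec+BBR 5, shRNA+BBR 2 or shRNA+BBR 3 also ended the calls for H2-Q10 and H2-T10, with adjusted p-values up to 0.0959 and 0.0902, and that for H2-Q10 ended as well without shRNA+BBR 4 (0.0518) or shRNA+BBR 5 (0.0813). Among the class II genes the lowest adjusted p was 0.194, for H2-DMb2, whose log2 fold change of 1.28 was 0.69 with the covariate. B2m had 0.48 (adjusted p = 0.0516). DESeq2 called B2m, as did edgeR without Vec+BBR 1, shRNA+BBR 1, shRNA+BBR 4 or shRNA+BBR 5, and the fit with the H2-Ea covariate did not. In shRNA+BBR livers the T and NK cell markers summed to 4.94 to 19.3 CPM and the interferon response genes to 250.1 to 636 CPM, and Nkg7, Ccl5, Irf7 and Gbp3 were higher than in Vec+BBR livers. With the H2-Ea covariate 0 of 9 T and NK cell markers and 1 of 18 interferon response genes were higher. The part of these markers in the rise of Psmb8 was not tested.

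With BBR in knockdown mice, 3 class II genes rose. In shRNA+BBR against shRNA livers 4 of 32 members were higher, namely H2-DMb1, H2-Eb1, H2-DMa and the class Ib gene H2-Q1. By edgeR 0 were lower. At an unadjusted p-value under 0.05 the counts were 11 higher and 0 lower, where 33.2% of all genes passed, and DESeq2 called 7 (these 4 with B2m, H2-Ab1 and Psmb9), against 17.4% of all genes it tested. This is 12.5% of the members against 15.7% of all genes tested, so the share is not above the background. The median log2 fold change was 0.30 over the members and 0.01 over all genes, and 1.16 over the 8 class II genes tested, all of them positive. With the covariate 3 of 31 members were called, 9.68% against 12.1% of all genes.

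H2-DMb1 rose from 1.37 to 2.78 CPM in shRNA to 4.17, 6.92, 5.68, 4.88 and 2.74 CPM in shRNA+BBR livers, where only shRNA+BBR 5 reached into the shRNA range. The log2 fold change was 1.25 (standard error 0.25, adjusted p = 0.00567), 1.15 with the covariate (adjusted p = 0.00781), and between 1.09 and 1.40 with any 1 liver left out. H2-Eb1 was at 21.8, 53.6, 32.2, 29.1 and 21.0 CPM in shRNA+BBR livers (log2 fold change 1.31, standard error 0.37, adjusted p = 0.0236), and shRNA 3 alone reached into this range. With the covariate it was 1.21 (adjusted p = 0.0347). H2-DMa was at 3.05, 5.80, 5.11, 3.70 and 3.47 CPM (log2 fold change 0.95, standard error 0.30, adjusted p = 0.0398), and shRNA 3 at 3.18 CPM reached into this range. With the covariate the call ended (0.84, adjusted p = 0.0531). With the Rps18-ps6 share in its place neither H2-Eb1 nor H2-DMa was called (adjusted p = 0.0526 and 0.0722).

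Cd74 had a log2 fold change of 1.01 (adjusted p = 0.0625) and H2-Ab1 of 1.06 (adjusted p = 0.0503). Neither passed. H2-Q1 was at 7.95, 6.46, 5.30, 7.62 and 3.37 CPM in shRNA+BBR and 2.58 to 4.07 CPM in shRNA livers, and rose by 0.86 ± 0.28 on the log2 scale (standard error, adjusted p = 0.0439). In the Vec mice its value with BBR had been 1.23. The call for H2-Q1 here ended in each of the fits without 1 liver except that without shRNA+BBR 5, with adjusted p-values up to 0.102. H2-Eb1 was no longer called without shRNA 1, shRNA 2, shRNA 4, shRNA 5, shRNA+BBR 2 or shRNA+BBR 3 (up to 0.0726), and H2-DMa without these or shRNA+BBR 4 (up to 0.103). The number called was 1 without shRNA 1, shRNA 2, shRNA 4, shRNA 5, shRNA+BBR 2 or shRNA+BBR 3, 2 without shRNA+BBR 4, and 9 without shRNA+BBR 5. Of all genes, 661 to 1281 were called where 1 member was, 1195 where 2 were and 2527 where 9 were. With all livers 1932 were called. Among livers with H2-Ea alone, 4 shRNA and 5 shRNA+BBR, H2-DMb1, H2-Eb1 and H2-DMa were called (adjusted p = 0.0201, 0.0412 and 0.0414) and H2-Q1 was not (0.0535). In that fit 785 of all genes were called. B2m did not overlap between shRNA (1598 to 2140.0 CPM) and shRNA+BBR livers (2158 to 3484 CPM), with a log2 fold change of 0.42 (adjusted p = 0.0577).

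**Figure D5:**
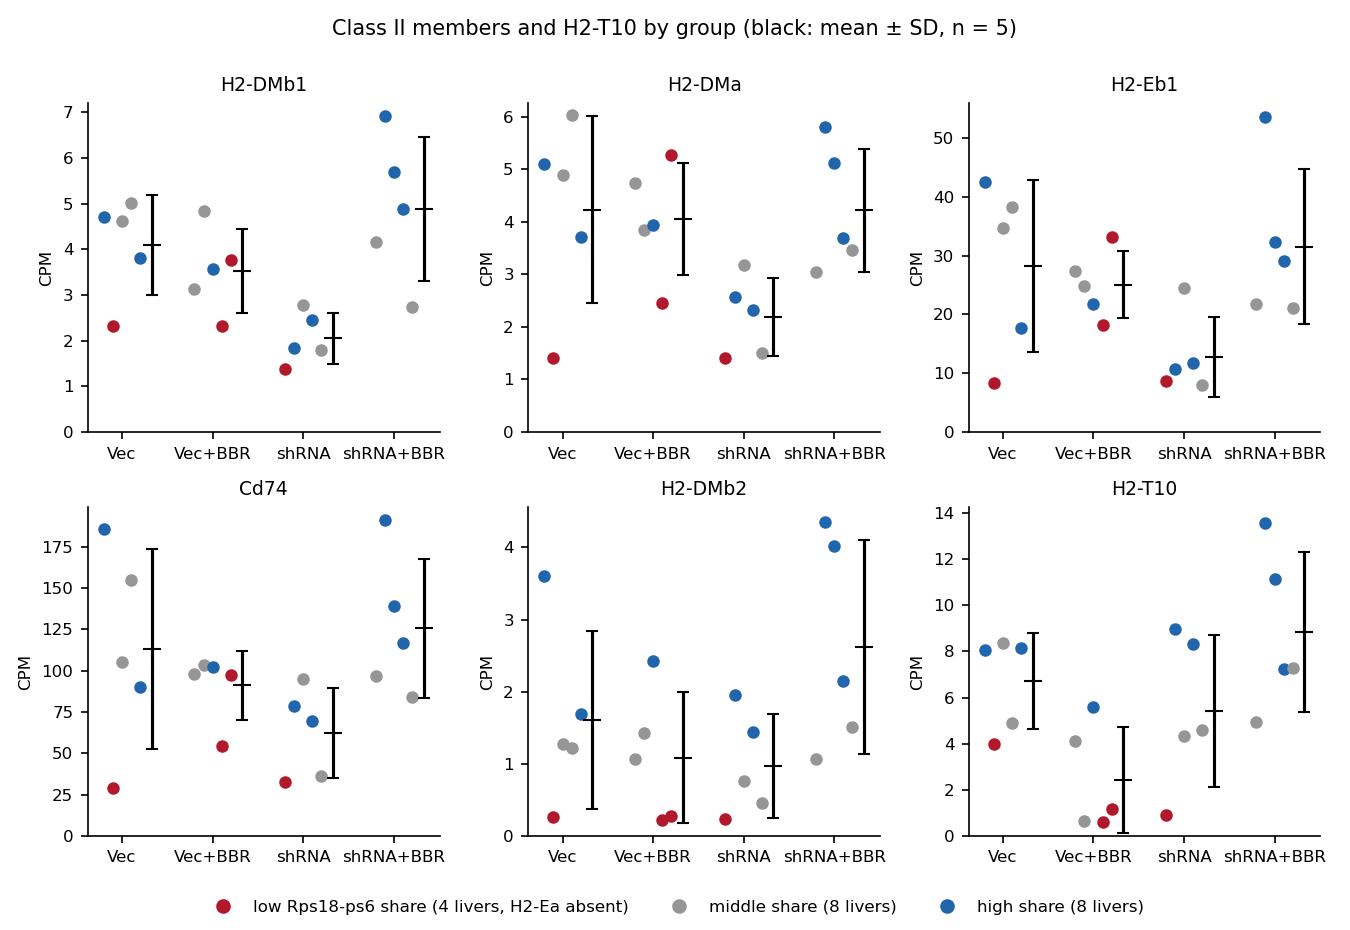
CPM of H2-DMb1, H2-DMa, H2-Eb1, Cd74, H2-DMb2 and H2-T10 by group, with 1 point per liver coloured by cluster and the mean ± SD of 5 livers in black. The shRNA livers are low for the first 3 genes, and livers without H2-Ea are the lowest of their group for H2-DMb2.

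Some markers of antigen-presenting cells were higher in the same comparison. Of 13 Kupffer cell and macrophage markers Cd68, C1qa and C1qb were higher in shRNA+BBR than in shRNA livers, with log2 fold changes of 0.88, 0.67 and 0.55, and the sum of the list was 376 to 531 CPM against 291 to 391 CPM. Marco, Vsig4 and Timd4 had negative values of −0.61, −0.18 and −0.03 (adjusted p = 0.473, 0.560 and 0.946). All other markers of this list were positive, and its median was 0.22. Of 2 dendritic cell markers tested, Itgax was higher by 1.10 (adjusted p = 0.0238) and Zbtb46 had a log2 fold change of −0.17 (adjusted p = 0.630), while Siglech and Cd209a, which mark dendritic cell types, were at most 0.101 and 0.3297 CPM in any liver. Jchain, a plasma cell gene, was higher by 3.64 (adjusted p = 0.0164), at 0.134 to 45.3 CPM over all livers. The B and plasma cell list summed to 49.0 CPM in shRNA+BBR 4 and to at most 7.77 CPM in any other liver. Nkg7 of the T and NK cell list and Isg15 and Ifit2 of the interferon list were also higher, 2 hepatocyte markers were lower, and of the endothelial markers 1 was higher and 2 were lower. The part of these cells in the class II increases was not tested.

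The BBR effects in both vectors were compared by an interaction term, and no member passed in edgeR. Of all genes 0.146% passed, and 0.0891% with the covariate, where again no member did. At an unadjusted p-value under 0.05, 14 members were positive and 1 negative, where 18.5% of all genes passed. DESeq2 called 4 (H2-DMb1, H2-Q6, Psmb8 and Psmb9) at an adjusted p-value under 0.05, against 3.17% of all genes it tested, and limma on log2 FPKM called 0. Psmb8 had the smallest adjusted p in edgeR, with 1.499 on the log2 scale (standard error 0.34, adjusted p = 0.0649), followed by H2-DMb1 with 1.47 (standard error 0.35, adjusted p = 0.0796). For Psmb8 the BBR effect had been −1.19 in Vec and 0.31 in shRNA mice, and for H2-DMb1 −0.22 and 1.25. H2-Q10 had an interaction of −0.92 (adjusted p = 0.193), with BBR effects of 1.05 and 0.14. In the high cluster H2-Q10 was at 704 to 793 CPM in shRNA and 1180 to 1283 CPM in shRNA+BBR livers. In the middle cluster 1138 to 1254 CPM stood against 743 to 1603 CPM. The low cluster held no shRNA+BBR liver, so the value of 0.14 compares unlike mixtures of clusters. The comparisons share groups and are not independent of each other. Without Vec+BBR 1 the interaction passed for Psmb8, and without shRNA+BBR 5 for Psmb8 and H2-DMb1. In these fits 97 and 55 of all genes passed, against 18 with all livers.

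Genes that serve antigen presentation outside the H2 block were taken from a list of 40, of which 36 were tested. With BBR in Vec mice 3 were higher and 2 lower. Those lower were Irf1 and Ctsl, the gene of the protease cathepsin L (log2 fold change −0.38, adjusted p = 0.0103), and those higher included Hspa5, an endoplasmic reticulum chaperone gene (0.38, adjusted p = 0.0120). With knockdown in vehicle-treated mice 1 was higher, Jak1, a kinase gene of the interferon receptors (0.54, adjusted p = 0.000212), and 4 were lower. Of these, Tapbpl, a relative of Tapbp, had −0.55 (adjusted p = 0.00105), Ctsz, a cathepsin gene, −0.62 (adjusted p = 0.000304), and Calr, the gene of the peptide loading chaperone calreticulin, −0.51 (adjusted p = 0.0120).

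In shRNA+BBR against Vec+BBR livers none of these 36 was higher and 2 were lower, Canx and Marchf8, which encode a heavy chain chaperone and a ubiquitin ligase of class II. In shRNA+BBR against shRNA livers 3 were higher, Ctsz (0.60, adjusted p = 0.00241), Ctsd and Psme1, a proteasome activator gene. Rfx5, which encodes a factor that binds the X box of class II promoters, was lower (−0.74, adjusted p = 0.00602). The median of the list lay between −0.11 and 0.17 in the 4 comparisons and the interaction. With the H2-Ea covariate the counts higher and lower were 1 and 2 for Vec+BBR against Vec, 1 and 4 for shRNA against Vec, 1 and 1 for shRNA+BBR against Vec+BBR, and 1 and 1 for shRNA+BBR against shRNA.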

How the data were processed

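Liver RNA of 20 mice, 5 per group, was sequenced from poly(A) RNA on an Illumina instrument. The authors deposited expected counts and FPKM per gene and library, and the submitters' processing notes name the build mm10. The aligner and counter were not given in the sources used here. The build holds a single H2 haplotype, and the effect of this on the counts was not tested. Between 91.9% and 93.3% of the deposited expected counts were whole numbers, and all were rounded. FPKM, which the authors scaled for length and depth, served to compare levels between genes.

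Counts were filtered with filterByExpr, scaled by TMM and fitted in edgeR 4.0.16 (R 4.3.3) with 1 mean per group over all 20 libraries, and 12342 genes were tested by its quasi-likelihood test, with p-values adjusted by Benjamini-Hochberg and a threshold of 0.05. Groups come from the labels. Each library is a mouse, and no pair of libraries within a group agreed within sampling noise. The members and lists were chosen with earlier results of these data known. H2-Ea is given in every library, and the 12 members with the smallest p-values among those called are given in the libraries of the groups in which they were called, by value or by range. H2-Ea was called present from 1 CPM. Alternatives used DESeq2 1.42.0, limma 3.58.1 on log2(FPKM + 0.1), other filters and scalings, H2-Ea or the Rps18-ps6 share as covariate, subsets of livers, the replicate number as block, and each liver left out in turn. The share covariate and the fit on the middle cluster alone were added after seeing the data. The script was tested on simulated data. Symbols were matched by ID to GENCODE M21, where 22255 of 22298 IDs were found.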

Additional observations from a re-analysis of the deposited data

Results flagged for a closer look

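In 10 of 128 groups of 5 livers, a liver lay apart from the other 4 by Dixon's test at the 95% level, which chance alone gives in about 1 of 20 groups. In shRNA 3, 3 class II genes stood high in their group, H2-Aa at 43.4 CPM (others 12.7 to 18.5 CPM), H2-Ab1 at 24.4 CPM (7.42 to 11.2 CPM) and H2-Eb1 at 24.6 CPM (8.001 to 11.7 CPM). In shRNA+BBR 2, 4 class I pathway genes stood high, Psmb8 at 51.6 CPM (20.2 to 28.5 CPM), Tap1 at 24.99 CPM (9.68 to 11.9 CPM), Tap2 at 27.8 CPM (15.2 to 18.1 CPM) and Tapbp at 78.2 CPM (54.6 to 58.6 CPM). H2-T22 was high in shRNA 1, a liver without H2-Ea, at 153 CPM (84.9 to 103 CPM), and Tap2 was high in shRNA 2 at 21.4 CPM (16.1 to 17.7 CPM). Cd74 was low in Vec+BBR 4, also without H2-Ea, at 54.2 CPM (97.3 to 104 CPM).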

How the results depend on the processing

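Of 462 repeats of 21 gene results under other settings, 310 kept direction and call, 146 kept the direction but were no longer called, 6 became called and 0 changed direction. The numbers of members called were 6 for BBR in Vec mice, 7 for knockdown under vehicle, 3 for knockdown under BBR, 4 for BBR in shRNA mice and 0 for the interaction, and the counts below keep this order. At an unadjusted p-value under 0.05 they were 11, 12, 6, 11 and 15, beside 30.2%, 28.4%, 24.7%, 33.2% and 18.5% of all genes. DESeq2 called 7, 8, 5, 7 and 4, beside 16.3%, 14.8%, 11%, 17.4% and 3.17% of all genes. Among livers with H2-Ea alone, 2, 4 and 0 were called in the first 3, where 290, 737 and 196 of all genes were called. In the middle cluster alone, with 2 livers a group, 0 were called in the first 4. There 0, 6, 4 and 1 of all genes were called. A fit on livers without H2-Ea alone was planned only where both groups kept 2 such livers, which no comparison did, and was not run. In shRNA+BBR against Vec+BBR, H2-Ea presence as covariate left 1 call, the Rps18-ps6 share 1 and log2 CPM of H2-Ea 0. Of all genes 643, 579 and 487 were called in these fits. In shRNA+BBR against shRNA, log2 CPM of H2-Ea left 2 calls, and a fit on the groups compared alone gave 7. Of all genes these fits called 842 and 2061. In shRNA against Vec, limma on log2(FPKM + 0.1) called 2, Tapbp and H2-DMb1, beside 1554 of all genes. With each liver left out in turn the ranges were 4 to 8, 2 to 9, 1 to 4, 1 to 9 and 0 to 2. Of all genes 1237 to 2395, 1015 to 2284, 538 to 1129, 661 to 2527 and 5 to 122 were called in these fits.

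With the replicate number as block, 5, 2, 2, 2 and 0 members were called, beside 1747, 1495, 940, 1819 and 21 of all genes. Same-numbered livers deviated together with a correlation over 0.1 in 1 of 5, 0 of 5, 0 of 5 and 3 of 5 pairs of the first 4 comparisons. The labels do not say whether the numbers pair the mice, and so few correlations cannot settle it. The small groups and the uneven mixture of clusters limit the comparisons, and the causes of these changes were not tested.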
